A study of Mus musculus with 9 samples.

Results

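The comparison described here spans the whole of oocyte maturation in the mouse: 3 arrays of metaphase II (MII) oocytes, the mature arrested egg, against 3 arrays of germinal vesicle (GV) oocytes, which are arrested in prophase of the first meiotic division. These 6 arrays were chosen by their titles out of 9 in the series, and all 18193 genes with a named probe set were used. All mice had received pregnant mare's serum gonadotropin (PMSG), a hormone that drives follicle growth, with 48 h given for every array. The GV oocytes were collected without further stimulation (0 h of human chorionic gonadotropin, hCG, the ovulatory signal) and the MII oocytes after 14 h of hCG. The hours of hCG are given separately, so the time from PMSG to collection may differ between the stages. The remaining 3 arrays, metaphase I (MI) oocytes taken after 4 h of hCG, entered the fit only through its estimate of the spread, and their values are given as the point in between. At each stage the mRNA bound to polysomes, the ribosomes engaged on a message, was purified, amplified and hybridised to Affymetrix 430 2.0 arrays. The labels name no strain, age or genotype, nor how many animals or oocytes stand behind an array.

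A fully grown oocyte makes almost no new mRNA, so the proteins of meiosis and of the early embryo are produced from messages stored during growth. During maturation many stored messages gain poly(A) tails and are recruited to ribosomes, while others lose their tails, leave the ribosomes and are degraded. A polysome-bound signal therefore depends both on how much of a message exists and on the part of it being translated, and the 2 cannot be told apart in these arrays.

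The values were array intensities, and a change is the difference of stage means of log2(intensity + 16), MII minus GV. Over genes, 2 arrays of 1 stage correlated with a mean r of 0.901 at GV and 0.900 at MII, and a GV array with an MII array at 0.777. Array medians ran from 12.4 to 13.2 intensity units, close to background, so most genes gave little signal, while the 95th percentile fell from 1287 to 1442 on the GV arrays to 1126 to 1221 on the MII arrays. The 10 oocyte markers summed to between 48554 and 54487 intensity units on the GV arrays and between 27771 and 34126 on the MII arrays. Of 20 granulosa, cumulus and theca markers 17 were measured, and none passed the test. They summed to 834 to 1001 at GV and 327 to 722 at MII, and Cyp11a1 made up most of the sum on GV arrays 1 and 2. Of the 17 markers 10 had a change above 0, and the median change was 0.053. Their median intensity was 14.2 at GV and 17.5 at MII. Kitl (mean 12.8 at GV and 43.5 at MII), Hsd3b1 (3.49 and 22.0) and Ptgs2 (10.4 and 34.6) were among those that read higher at MII. The steroid enzyme Cyp11a1 read 782, 679.5 and 130.0 at GV and 394, 19.5 and 75.3 at MII. GV array 3 stood apart from the other GV arrays in Star, which carries cholesterol into mitochondria (403 against 46.0 and 40.2), and in the follicle-cell genes Inha (132 against 25.6 and 4.03) and Foxl2 (95.04 against 2.76 and 4.52). Fshr (mean 3.96 at GV and 3.33 at MII) and Amh (16.4 and 18.4) were near background at both stages. Of 12 blood, immune and endothelial markers 10 were measured, summing to 364 to 842 at GV and 634 to 940 at MII, and only the endothelial receptor Tek passed, with a change of -3.44 (limma's test, adjusted p = 0.00617). The endothelial adhesion molecule Pecam1 read 298, 91.6 and 182 at GV and 569, 627 and 785 at MII, so its stages did not overlap, but its change of 1.83 did not pass (adjusted p = 0.153). The part of these other cells in the results was not tested, and in such bulk samples fewer cells of a type and less RNA per cell cannot be told apart.

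Between GV and MII the polysome-bound population turned over on a large scale. limma's test with Benjamini-Hochberg adjustment over all genes called 1004 genes higher at MII (5.52% of those tested) and 1627 lower (8.94%), together 14.5%. The median change was 1.96 among genes called higher and -2.63 among genes called lower, against -0.03 over all genes. Among the genes called higher 945 changed at least 2-fold, 490 at least 4-fold and 17 at least 16-fold, and among those called lower 1600, 1193 and 180 did. The 3 MII arrays lay above the 3 GV arrays in 14.3% of all genes and below them in 17.6%, and they did so in 1003 of the 1004 genes called higher and 1626 of the 1627 called lower. The number of genes called higher fell to 638 without GV array 2, 621 without GV array 3, 641 without MII array 1 and 614 without MII array 3.

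Most of the movement came in the later interval, after MI, which was also the longer one. It ran from 4 h to 14 h of hCG, against 0 h to 4 h for the earlier interval, and rates per hour were not compared. Among genes called lower, the median intensity was 1092 at GV, 773 at MI and 127 at MII, so the median gene fell by 0.34 up to MI and by 2.18 from there on. Among genes called higher it was 219, 367 and 1058, with a median gain of 0.61 up to MI and 1.29 after it. The genes not called stayed at 26.7, 27.2 and 25.1. Of 788 further probe sets above the median signal that belong to genes called higher, 723 changed in the same direction, and of 1021 that belong to genes called lower 859 did. Fitted probe set by probe set, limma's test called 1643 of 34945 probe sets higher (4.7%) and 2200 lower (6.3%).

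The balance of the calls depended on how the arrays were put on a common scale. Genes called higher made up 38.2% of all calls on the values as deposited, 52.0% after quantile normalization, 50.1% with the arrays scaled to the same 95th percentile, 46.7% with the arrays centred on their medians and 43.8% after cyclic loess. Centring on the array medians moved the median change of all genes from -0.03 to 0.14. A second test was therefore read beside the first. It compares each gene's change with the median change of the genes in the same bin of GV signal, 20 bins of equal gene number, and is called here the comparison with genes of like GV signal. It placed 1646 genes above (9.05%) and 852 below (4.68%) their like-signal genes. Without MII array 3 the number above was 1081, and the number below was 521, 565 and 564 without GV arrays 1, 2 and 3.

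**Figure D1:**
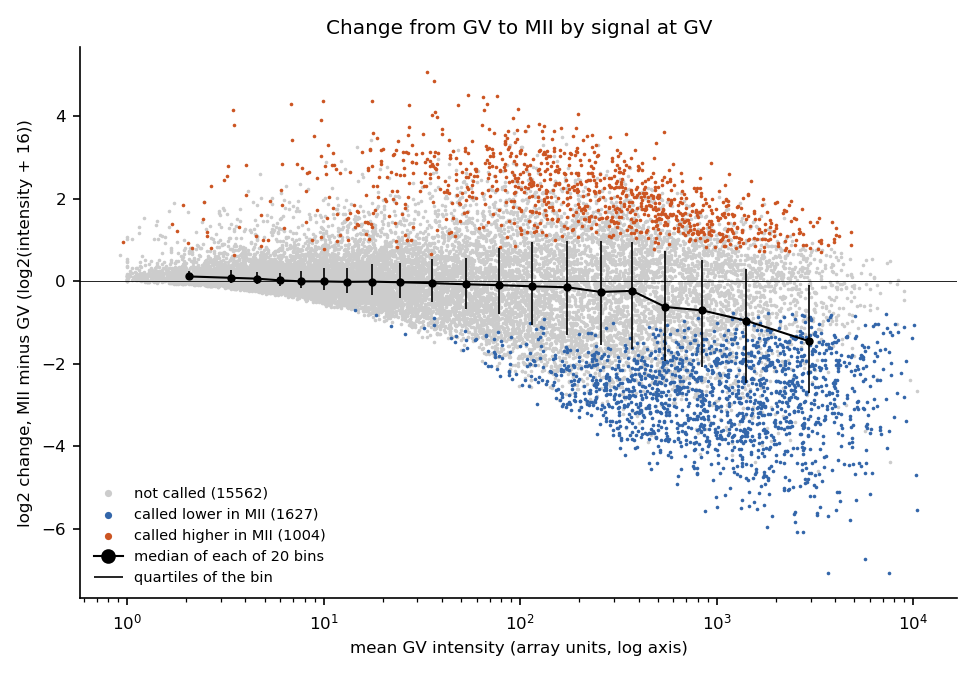
Change of each of 18193 genes from GV to MII, on the log2(intensity + 16) scale, against its mean GV intensity on a log axis, with the genes called higher and lower marked and a line through the median of each of 20 bins. The median is 0.11 in the dimmest bin, -0.10 in the twelfth and -1.45 in the brightest.

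The change fell with the signal at GV. In the dimmest of the 20 bins, with a median GV intensity of 2.05, the median change was 0.11, and in the twelfth (median 78.0) it was -0.10. It then dropped to -0.63, -0.71, -0.96 and -1.45 in the 4 brightest bins. In the brightest, the median intensity went from 2936 at GV to 1282 at MII, 478 of 910 genes were called lower (52.5%) and 53 higher (5.82%). The bins and the changes share the GV readings, so part of this trend can follow from the binning. The comparison with genes of like GV signal shares them too. Put into bins by their MI signal instead, the brightest genes had a median change of -0.88 and the dimmest -0.0029. After quantile normalization the brightest bin of GV signal stood at -1.20. In the 7 dimmest bins no gene was called lower, where a GV signal near background leaves no room to fall.

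Reading each gene against its bin split the falling genes into groups of near-equal size. Of the 1627 genes called lower, 852 also fell further than genes of like GV signal and 775 did not. Conversely, 649 genes lay above their like-signal genes without being called higher. Among them were bright messages that held their signal.

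The make-up of the brightest messages changed. Of the 910 genes (5%) with the highest mean at GV, 363 were among the 910 highest at MII, and of the brightest 100 at each stage 19 were shared. Single arrays of a stage shared between 70.3% and 72.4% of their brightest 910 genes at GV and between 75.9% and 79.0% at MII, whereas a GV and an MII array shared between 34.0% and 42.7% over all 9 pairs. Of the 910 brightest GV genes 481 were called lower (52.9%), 48 higher (5.27%) and 381 neither. Their changes had quartiles of -2.80, -1.54 and -0.15 and ran from -7.07 to 1.94.

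The brightest messages that fell included a splicing factor and genes of the egg's cytoplasmic store. Bud31, a splicing factor with the highest GV signal of all, read 10437, 9892 and 11019 on the GV arrays and 229, 251 and 161 at MII, a change of -5.53 (SE 0.76, adjusted p = 0.00315). Its 2 other bright probe sets changed by -2.11 and -0.17, and with all its probe sets averaged the change was -2.60. Jpt1, a microtubule-associated protein, went from 11378, 9634 and 9785 to 361, 526 and 291 (-4.69, SE 0.55, adjusted p = 0.00197). Both had spread widely at MI, where Bud31 read 5148, 7775 and 752. Padi6, needed for the cytoplasmic lattices that store ribosomes and maternal proteins, fell from 7021, 8155 and 11576 to 1042, 1773 and 1011 (-2.81, SE 0.29, adjusted p = 0.00132). Ooep, a partner of Padi6 in the subcortical maternal complex, fell from 9461, 10146 and 9899.8 to 3794, 3268 and 4293, a change of -1.38 beside the -1.45 of its like-signal genes (adjusted p = 0.00305, and 0.0515 with a pseudocount of 1). No MII array reached the GV range in any of these 4 genes. Ldhb (-1.06, adjusted p = 0.0468), Rps29 (-3.40, adjusted p = 0.0242) and Skp1 (-1.11, adjusted p = 0.0238) were also among the 8 brightest called lower. Their calls by limma's test were not stable. Leaving out single arrays lost the call in 7 cases for Ldhb, 3 for Rps29 and 3 for Skp1.

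A few of the brightest messages ran against the fall. Btg4, an adaptor of the deadenylase that clears maternal mRNA, rose from 4912, 3637 and 2993 to 9987, 10438 and 10060.4 (1.43, SE 0.25, adjusted p = 0.00769). Obox2, an oocyte homeobox gene, went from 5354, 4982 and 4056 through 7563, 7913 and 7461 at MI to 10578, 10906 and 11158 (1.19, SE 0.19, adjusted p = 0.00553). Rbbp7, a histone-binding chaperone, rose by 1.29 (adjusted p = 0.0119), the oocyte-secreted protein Oosp1 by 1.11 (adjusted p = 0.0098) and Bcl2l10, an oocyte member of the Bcl2 family, by 1.10 (adjusted p = 0.00597). For each of these 5 genes every MI array lay below every MII array. Slbp, which binds histone mRNA and carries it into translation, was the most even, with 3916, 4025 and 3863 at GV, 5883, 5929 and 5789.7 at MI, and 7512, 7573 and 7889 at MII (0.96, SE 0.17, adjusted p = 0.00805). With a pseudocount of 1 in place of 16 these 6 rises kept their size but missed the threshold. The adjusted p was 0.0578 for Btg4, 0.0823 for Rbbp7, 0.0855 for Obox2, 0.105 for Bcl2l10 and 0.111 for Oosp1. Slbp also missed it without the dimmest 40% of genes and with its probe sets averaged (adjusted p up to 0.55). Trp53bp1 and Bod1 also rose, by 1.03 (adjusted p = 0.0225) and 0.87 (adjusted p = 0.0229), but neither call was stable. Trp53bp1 lost it without any single MII array, with a pseudocount of 1, without the dimmest 40% of genes and on the 6 GV and MII arrays alone (adjusted p up to 0.151). Bod1 lost it without any single GV array, MII array 2 or MII array 3, with a pseudocount of 1 and without the dimmest 40% of genes (up to 0.209).

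**Figure D2:**
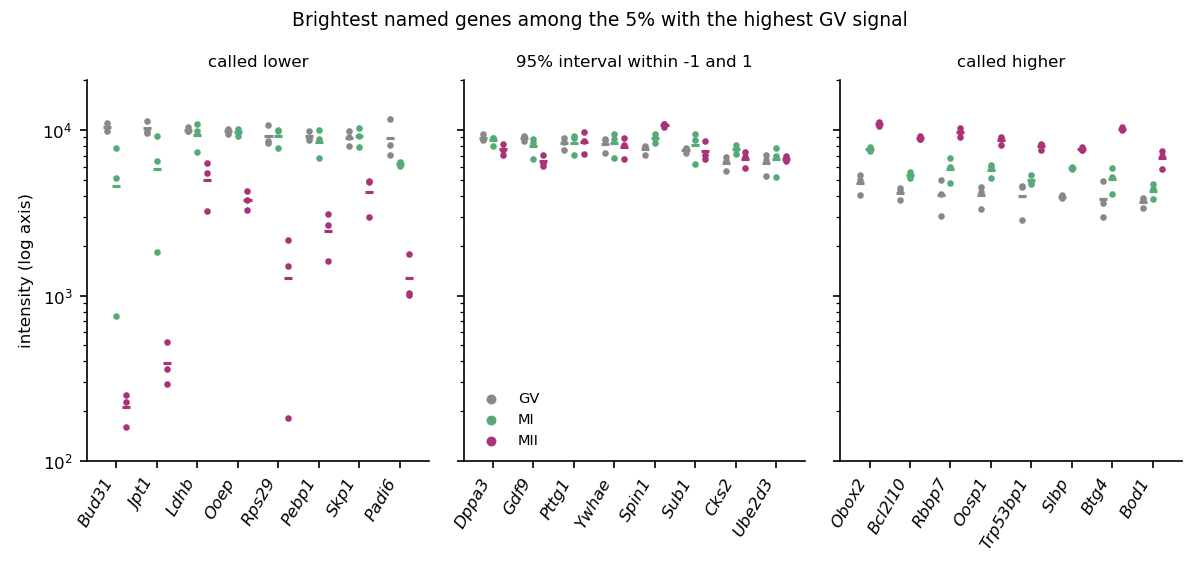
Intensity on a log axis of the 8 brightest genes that were called lower, the 8 whose 95% interval of the change lies between -1 and 1, and the 8 called higher, among the 5% of genes with the highest GV signal. Points are single arrays (3 per stage) and bars are stage means. Btg4 goes from a mean of 3847 to 10162 while Jpt1 goes from 10265 to 393.

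In another group of bright genes the change was bounded. In 128 of the 910 brightest genes its 95% interval lay between -1 and 1, and since the median change at this signal is below -1, a place above like-signal genes follows from that choice. Dppa3, a maternal factor that guards DNA methylation in the zygote, read 9394, 8704 and 8789.9 at GV and 7056, 8215 and 7571 at MII (-0.24, interval -0.64 to 0.17). Pttg1, securin, which holds separase in check until anaphase, read 7533, 8968 and 8416 at GV and 7115, 8584 and 9644 at MII (0.02, interval -0.48 to 0.51). Its MII arrays spread on both sides of the GV range. Spin1, a spindle-associated histone reader, read 7885, 7989.8 and 7022 and then 10791, 10811 and 10472, so its MII arrays all lay higher, but the change of 0.49 did not pass (adjusted p = 0.113). The others were Cks2, Ywhae, Sub1 and Ube2d3, with changes between -0.06 and 0.10, and Gdf9.

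Genes with a bright probe set of opposite sign, or with overlapping GV and MII arrays, were not eligible for the 2 groups of 12 described next. The direction of further bright probe sets in these groups was therefore fixed by the choice. The 12 genes furthest above genes of like GV signal were dim at GV. Values at or below the array medians, 12.4 to 13.2, cannot be told from background, so a change that starts or ends there has no fixed size and moves with the pseudocount. The changes of these 12 genes ran from 4.17 to 5.06 with the pseudocount of 16, from 4.44 to 5.78 with 1 and from 2.83 to 4.03 with 64. In 16 genes the mean went from under 50 to at least 500 with a call, and in 125 it went from at least 500 to under 50. Arl14ep, an ARL14 effector, read 50.9, 8.11 and 42.0 at GV, 249, 212 and 332 at MI, and 1115, 2106 and 1435 at MII, a change of 5.06 (SE 0.43, adjusted p = 0.000837), while its other bright probe set changed by 1.13. Cyp4v3, a fatty acid hydroxylase of the cytochrome P450 family, went from 9.38, 7.08 and 13.4 through 110.4, 38.6 and 80.2 to 494, 522 and 532 (4.36, SE 0.31, adjusted p = 0.000701). With a mean of 9.96 at GV, its change was 5.60 with a pseudocount of 1 and 2.97 with 64. Arl14ep and Cyp4v3 were already above their whole GV range at MI on all 3 arrays. Anapc10, a subunit that helps the anaphase-promoting complex bind its substrates, went from 155, 102 and 35.1 through 475, 696 and 967 to 1266, 2114 and 2196 (4.17, SE 0.48, adjusted p = 0.00189), and a further bright probe set of Anapc10 changed by 3.40. Thsd7b (4.37, adjusted p = 0.00137), Fbxo15 (4.45, adjusted p = 0.00709), Mynn (4.52, adjusted p = 0.0132), Tmc7 (4.27, adjusted p = 0.00408) and Camk1d (4.29, adjusted p = 0.00751) also rose, with no loss of the call on leaving out any single array. Thsd7b missed the threshold when all its probe sets were averaged (adjusted p = 0.0981). In Prkci, Lamp2, Stag1 and Mettl17 changes of 4.25 to 4.84 were called, and each call was lost without 1 to 3 of the single arrays. The arrays were MII array 3 for Prkci (adjusted p = 0.0525), any MII array for Lamp2 (up to 0.0599), GV array 1 or MII array 3 for Stag1 (up to 0.0516) and GV array 2, GV array 3 or MII array 2 for Mettl17 (up to 0.0572).

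The 12 genes furthest below genes of like GV signal went from strong to dim signal. The MII mean of 6 of them lay under the highest array median, and the changes of the 12 ran from -7.07 to -5.21 with the pseudocount of 16, from -8.50 to -6.35 with 1 and from -5.75 to -3.79 with 64. Ndufa5, a subunit of respiratory complex I, read 6133, 5514 and 5345 at GV and 8684, 5905 and 2691 at MI, and then 107, 17.6 and 22.0 at MII (-6.72, SE 0.57, adjusted p = 0.000837). Commd9, a COMM-domain protein, went from 2139, 1191 and 1499 to 57.4, 5.51 and 10.4 (-5.51, SE 0.46, adjusted p = 0.000818), after MI readings of 1447, 1464 and 1292 that still lay within the GV range. Ccnd2, cyclin D2 of the G1 phase, went from 689, 1211 and 1088 to 5.27, 10.2 and 3.49 (-5.47, SE 0.58, adjusted p = 0.00138), and its 5 further bright probe sets changed by -3.90 to -1.26. Tsc22d4, a leucine zipper protein, fell by 5.95 (adjusted p = 0.000701), although its other bright probe set changed by only -0.07.

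Some falls were under way by MI. Aspscr1, a tether of GLUT4 vesicles, changed by -7.07 (SE 0.91, adjusted p = 0.00268), and read 3016, 4000.1 and 3967 at GV, 332, 1239.6 and 54.1 at MI and 5.95, 3.65 and 30.6 at MII. Endog, a mitochondrial endonuclease, went from 4865, 361 and 527 through 253, 193 and 78.1 to 4.55, 3.25 and 2.56 (-5.68, SE 0.89, adjusted p = 0.00544), and GV array 1 stood far above the other 2. Its MII readings are all below the array medians, its change was -7.80 with a pseudocount of 1 and -3.99 with 64, and its other bright probe set changed by -1.49. Phgdh, which starts serine synthesis, went from 3129, 609 and 916 through 97.9, 339 and 141 to between 9.10 and 21.6 (-5.34, SE 0.64, adjusted p = 0.002). All MI arrays of these 3 genes lay below all GV arrays. Aco1, Fxr2, Mien1, Mrps28 and Dmp1 completed the 12, with changes of -5.21 to -6.07. Mien1 no longer passed as below its like-signal genes without GV array 1, MII array 1 or MII array 2 (adjusted p up to 0.0552).

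**Figure D3:**
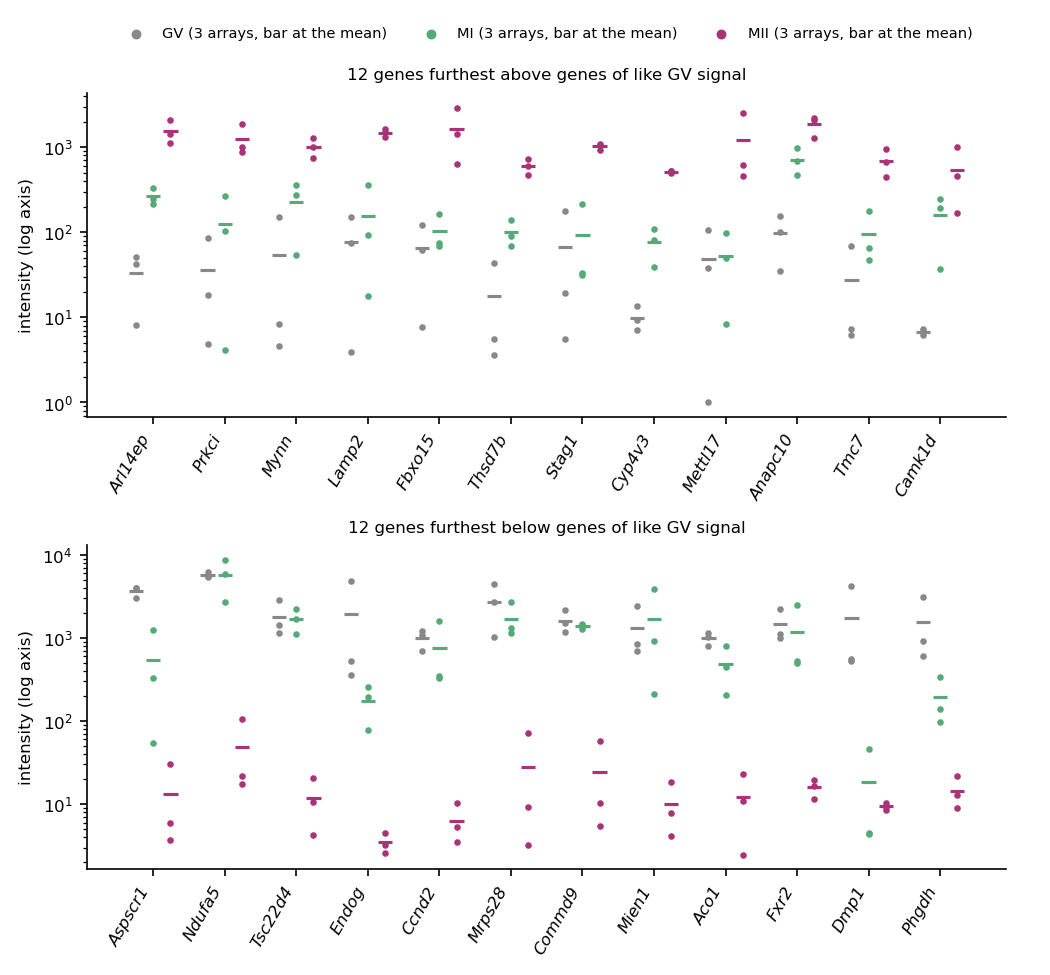
Intensity on a log axis of the 12 genes furthest above (top) and the 12 furthest below (bottom) genes of like GV signal, chosen among those that passed both tests. Points are single arrays, 3 each of GV, MI and MII, and bars are stage means. Arl14ep goes from a mean of 33.7 to 1552 and Ndufa5 from 5664 to 48.7.

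The messages of cytosolic ribosomal proteins had the lowest median change of the gene lists, with respiratory complex I next to them (-3.40 and -3.39). In the median difference from like-signal genes complex I was lowest, at -2.25 beside -1.97 for the ribosomal genes. None of 49 cytosolic ribosomal protein genes was called higher and 38 were called lower (77.6%, against 8.94% of all genes and 52.5% in the brightest bin). Their median change was -3.40 against -1.45 for genes of like GV signal, and 26 passed as lower than those. On the 3 GV arrays their summed intensity was 181336, 145166 and 176035, on the MI arrays 150886, 145454 and 129078, and on the MII arrays 27645, 23521 and 14198. The GV and MI arrays overlapped, while the MII arrays stood far below both. Rpl7, of the large subunit, read 2498, 2866 and 3137 at GV and 137, 77.4 and 117 at MII (-4.52, SE 0.27, adjusted p = 0.000455).

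Ribosomal protein mRNAs are known for a run of pyrimidines at their very 5′ end, through which their translation is controlled by growth signals. RefSeq start sites (GRCm38.p6) could be set beside the changes for 14452 genes. A C at the start followed by at least 4 bases of C or T occurred in 424 of these (2.93%) and in 8 of 43 ribosomal protein genes (18.6%), and a run beginning within 5 bases of the start in 23.1% and 46.5%. The windows of the 5 such ribosomal genes that were called lower are shown because they carry this known signal beside a measured fall. They run from 10 bases before the start to the 20th transcribed base, with the run in capitals: Rpl38 at chr11:114668570-114668599 and Rplp2 at chr7:141447641-141447670 on the plus strand, and Rps10 at chr17:27635225-27635254, Rps18 at chr17:33955646-33955675 and Rps27 at chr3:90213629-90213658 on the minus strand.
Rpl38: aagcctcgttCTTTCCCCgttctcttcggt
Rplp2: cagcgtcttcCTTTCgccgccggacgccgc
Rps10: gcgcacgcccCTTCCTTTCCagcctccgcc
Rps18: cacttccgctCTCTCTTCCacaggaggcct
Rps27: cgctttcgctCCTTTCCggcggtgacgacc

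These 5 genes were picked for their starts and calls after the values were seen. The other ribosomal genes with the run, Rpl14, Rpl35 and Rps6, changed by -1.02, -2.66 and -3.30 and were not called. Rpl14 had a GV mean of only 35.9. Over the ribosomal genes the median change was -3.54 with the run and -3.10 without it. Rpl38 read 7127, 4666 and 5473 at GV and 451, 364 and 94.1 at MII (-4.40, SE 0.52, adjusted p = 0.00192). Rps27 read 3472, 2385 and 2474, and then 157, 251 and 278 (-3.53, SE 0.27, adjusted p = 0.000715). Rplp2, Rps10 and Rps18 changed by -3.62, -3.92 and -3.54, and the MI means of the 5 genes lay between 2687 and 6497. The run did not mark falling genes in general. It was present in 3.41% of genes called higher, 3.52% of those called lower and 2.84% of the rest. In the 4 brightest bins the median change was -1.27 with the run and -0.90 without it, and with cytosolic ribosomal genes left out both medians were -0.87 (83 of 2989 genes with a run).

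Mitochondrial ribosomal genes followed, with 42 of 77 lower (54.5%, against 8.94% of all genes), 1 higher and a median change of -2.29 against -0.71. Translation factors moved less as a group. Of 45 initiation and elongation factors 23 were lower (51.1%, against 36.5% in the nineteenth bin, of like signal) and 1 higher. The median of -1.21 lay near the -0.96 of like-signal genes. Among them Eif2b4, a subunit of the exchange factor that recharges initiation, fell from 663, 612 and 813 to 50.8, 31.1 and 35.8 (-3.69, SE 0.27, adjusted p = 0.000701). Of 32 aminoacyl-tRNA synthetases 9 were lower (28.1%, against 15.8% in the sixteenth bin, of like signal), 1 was higher and 22 passed neither way.

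Genes of mitochondrial respiration had median falls of like size. In complex I, which feeds electrons from NADH into the chain, 33 of 43 were called lower (76.7%, against 8.94% of all genes) and none higher. Its median change was -3.39 against -0.96. In complexes II to V 33 of 48 were lower (68.8%) and none higher, with -2.76 against -1.45. Ndufb7, of complex I, read 2304, 2558 and 2602 at GV, 2194, 1758 and 2609 at MI, and 45.6, 32.5 and 31.4 at MII, the tightest of these falls (-5.58, SE 0.22, adjusted p = 0.000119). Sdhb, the iron-sulphur subunit of complex II, read 3687, 1789 and 2018 at GV and 124, 3.82 and 10.3 at MII (-5.83, SE 0.76, adjusted p = 0.00275), with MI at 946, 1243 and 399. The MI arrays of Ndufb7 overlapped its GV arrays, while all MI arrays of Sdhb were below all its GV arrays. In the citric acid cycle 9 of 20 genes were lower (45%) and none higher (median -1.17). In glycolysis 3 of 13 were lower (23.1%) and 1, Hk2, higher (7.69%, against 5.52% of all genes). Hk2, a hexokinase that was near background at GV, lost its call without any of 6 single arrays, GV arrays 1 to 3, MI array 3, MII array 1 and MII array 3 (adjusted p up to 0.137).

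Genes of protein breakdown were described by 3 lists. Of 48 proteasome genes 23 were lower (47.9%, against 36.5% in the nineteenth bin, of like signal) and none higher, with a median change of -1.34 against -0.96. Psmb5, a catalytic subunit, read 754, 496 and 474 at GV and 2.31, 13.6 and 51.4 at MII (-4.12, SE 0.55, adjusted p = 0.00299). Of 66 genes of F-box proteins, which choose substrates for ubiquitin ligases, 7 were higher (10.6%, against 5.52% of all genes) and 10 lower (15.2%, against 8.94%). Of these F-box genes 13 lay above their like-signal genes and 3 below. In the fifteenth and sixteenth bins, around their median GV intensity of 302, 12.7% and 15.8% of genes were called lower. Of 48 ubiquitin-specific proteases 4 were higher (8.33%) and 5 lower (10.4%), and 10 lay above and 3 below. Fbxw13, a member of an oocyte-rich F-box family, read 3617, 4893 and 6848 and then 122, 89.5 and 125 (-5.29, SE 0.33, adjusted p = 0.000455). Usp28, a deubiquitinase, moved the other way, from 397, 193 and 419.9 to 2385, 2074 and 3089.7 (2.90, SE 0.34, adjusted p = 0.00197).

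Among 36 kinases, phosphatases and checkpoint genes of M phase, which drive the meiotic divisions, 4 were higher (11.1%), 11 lower (30.6%) and 21 neither, and 13 lay above their like-signal genes against 3 below, and the list's median was 0.18 against -0.71. Cdk1, the kinase of M-phase promoting factor, read 5606, 2826 and 3687 at GV, 6534, 5497 and 2136 at MI, and 98.0, 26.0 and 107 at MII (-5.54, SE 0.56, adjusted p = 0.00132). Ensa, which as a Greatwall substrate inhibits the phosphatase opposing Cdk1, read 471, 323 and 355, rose above that range at MI (759.8, 653 and 536) and read 6.10, 11.2 and 7.08 at MII (-4.04, SE 0.23, adjusted p = 0.000455), and its other bright probe set changed by -1.34. Cdk1 and Ensa were at their highest mean at MI. At MII Ensa read below the array medians, while Cdk1 had a mean of 76.9.

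The anaphase-promoting complex, which targets securin and cyclin B for destruction, had 2 of 20 genes higher and 6 lower, and a median of -1.06 against -0.71. Cdc27, a core subunit, rose from 1151, 583 and 736 to 4787, 3142 and 3720.2 (2.25, SE 0.32, adjusted p = 0.00355), and its 3 further bright probe sets changed by 1.98 to 2.35. Its other member called higher was Anapc10. Cdc20, the activator of the complex, read 3739, 899 and 6793 at GV and 4116, 5279 and 5412 at MII, so its stages overlapped and the change of 0.78 did not pass (adjusted p = 0.545). Its 2 other bright probe sets changed by 2.43 and 3.26, and with all its probe sets averaged the change was 2.16 (adjusted p = 0.00309). Fbxo43, an inhibitor of the complex, read 14.7, 4.82 and 12.1 at GV and 89.1, 2.19 and 41.2 at MII, and did not pass (0.87, adjusted p = 0.557).

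Of 47 kinetochore and spindle genes 8 were higher (17.02%, against 5.52% of all genes), 5 lower (10.6%, against 8.94%) and 34 neither, with a median change of 0.33 against -0.71 for like-signal genes. Kif18a, a kinesin that damps chromosome movement, read 50.9, 38.7 and 66.9 at GV, 105, 79.8 and 127 at MI, and 539, 531 and 678 at MII (3.15, SE 0.25, adjusted p = 0.000806). Ndc80, which ties kinetochores to microtubules, rose from 234, 167 and 261 to 1706, 870.5 and 1327, having read 1027, 954 and 780.0 at MI (2.45, SE 0.30, adjusted p = 0.00219). Kif18a gained most of its signal after MI, while Ndc80 had most of it by MI. Spc24, a partner of Ndc80 in the same complex, fell from 5781, 1690.0 and 3507 to a mean of 84.3 ± 116 (SD, n = 3; -5.68, SE 0.79, adjusted p = 0.0033). The spindle assembly factor Tpx2 rose by 0.89 (adjusted p = 0.0281), and the call was lost without GV array 2, GV array 3, MII array 1 or MII array 3 (adjusted p up to 0.0864). It was also lost with a pseudocount of 1, without the dimmest 40% of genes, on the 6 GV and MII arrays alone and with its probe sets averaged (up to 0.82). Its other bright probe set changed by -0.05.

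The next 3 lists are small, and the share of genes called lower depends on GV signal. Around the median GV intensity of the MAPK list (291), 12.7% and 15.8% were called lower in the fifteenth and sixteenth bins. Around that of cohesin (476), the sixteenth and seventeenth bins had 15.8% and 20.99%. Around that of recombination and synapsis (63.9), the eleventh and twelfth bins had 0.77% and 2.42%. Whether a count of 0 lower departs from these shares was not tested. In the MAPK and metaphase II arrest list, of which 12 of 18 genes were measured, 4 were higher (33.3%, against 5.52% of all genes) and none lower. Mos, the kinase at the head of this pathway, read 1226, 987 and 576 and then 2596, 3032 and 1933 (1.47, SE 0.36, adjusted p = 0.03), and the call was lost without GV array 2, GV array 3, MII array 1 or MII array 2 (adjusted p up to 0.0928). Dusp1, a phosphatase of MAP kinases, rose by 1.85 (adjusted p = 0.0097) and the ribosomal S6 kinase Rps6ka6 by 1.82 (adjusted p = 0.0117). In cohesin 5 of 18 genes were higher (27.8%), none lower, and 9 lay above like-signal genes. Wapl, which releases cohesin from chromosomes, read 831, 446 and 307 at GV, 1861, 1273 and 692 at MI and 2868, 2555 and 2804 at MII (2.46, SE 0.44, adjusted p = 0.00912). In recombination and synapsis, whose work ends before birth, 2 of 25 genes were higher (8%) and none lower, at a median GV intensity of 63.9 that leaves little room to fall. Msh4, which stabilises crossover intermediates, read 118, 158 and 150.1 and then 784, 931 and 1124 (2.60, SE 0.22, adjusted p = 0.000839).

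The machinery that stores, tails and degrades mRNA changed in both directions. Of 54 such genes 11 were higher (20.4%, against 5.52% of all genes) and 10 lower (18.5%, against 8.94%). Of the same genes 19 lay above and 4 below their like-signal genes. Dcp1a, a cofactor of mRNA decapping, read 1372, 1086 and 835 at GV and 6327, 4194 and 6049 at MII (2.32, SE 0.32, adjusted p = 0.00306). Tent2, a cytoplasmic poly(A) polymerase, rose from 169.9, 144 and 86.4 to 994, 1857 and 932 (3.07, SE 0.46, adjusted p = 0.00436). Dazl, which promotes translation in germ cells by binding mRNA, rose from 908, 823 and 839 to 2127, 1735 and 1877 (1.14, SE 0.23, adjusted p = 0.0134, and 0.109 with a pseudocount of 1). Against these, Cpeb1, which binds the cytoplasmic polyadenylation element and starts the process, fell from 2527, 2204 and 2230.3 to 856, 687 and 653 (-1.65, SE 0.21, adjusted p = 0.00233), about as far as its like-signal genes (difference -0.20). It had read 3527, 2893 and 2734 at MI, above its GV range. Cnot10, a subunit of the deadenylase complex, fell by 3.68 (adjusted p = 0.000965), while Btg4, its adaptor, rose as described above.

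Maternal genes had a smaller median fall than genes of like GV signal. Of 26 subcortical complex and maternal effect genes 3 were higher (11.5%, against 5.52% of all genes) and 11 lower (42.3%, against 8.94%). Their median was -0.70 against -1.45. In the brightest bin of GV signal 5.82% of genes were higher and 52.5% lower. Of the 26 genes 11 lay above and 3 below their like-signal genes, against 9.05% and 4.68% of all genes. In the brightest bin 271 and 143 of 910 genes did. Khdc3, a member of the complex, was an exception, with 2853, 2700.1 and 2702 at GV and 125, 256 and 94.6 at MII (-4.09, SE 0.44, adjusted p = 0.00144). Nlrp5, a scaffold of the same complex, changed by -1.23 (adjusted p = 0.0176, and up to 0.057 without GV array 2 or 3). Among 18 oocyte transcription factors and cofactors 7 were higher (38.9%, against 5.52% of all genes), 2 lower (11.1%, against 8.94%) and 9 neither. The median change was 0.70 against -0.44. Obox5 rose from 1518, 1101 and 1699 through 3456, 3465 and 2200.5 to 6415, 5903 and 6265 (2.12, SE 0.26, adjusted p = 0.00228). Figla, which switches on the zona genes during growth, fell from 1489, 820.4 and 1178 to 15.5, 24.5 and 20.2 (95% interval of the change -5.68 to -4.31, adjusted p = 0.000455).

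The zona pellucida and growth factor list divided by product. The 3 zona proteins, which form the egg coat laid down during growth, all fell. Zp3 read 7942, 8616 and 9525 at GV and 2045, 2783 and 1118 at MII (-2.22, SE 0.32, adjusted p = 0.00397). Zp1 and Zp2, looked at after their values were seen, changed by -1.82 (adjusted p = 0.00364) and -2.27 (adjusted p = 0.00508). None of these 3 changes differed from those of like-signal genes by the second test. The growth factors that the oocyte sends to its cumulus cells did not pass. Gdf9 read 9077, 9193 and 8546 and then 6031, 7095 and 6343 (-0.46, adjusted p = 0.179), and Bmp15 changed by -0.70 (adjusted p = 0.178). The Gdf9 arrays of the 2 stages did not overlap, though the change itself missed the threshold. Oosp3, a secreted protein of the same list, rose from 3711, 3142 and 2888 to 8084, 8641 and 9448 (1.43, SE 0.19, adjusted p = 0.00299).

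Genes of the nucleus and its DNA changed in both directions. In the nuclear pore and lamina list 6 of 36 were higher and 6 lower (16.7% each, against 5.52% and 8.94% of all genes). In the same list 15 lay above like-signal genes and 1 below, with a median of 0.54 against -0.63. Seh1l, a scaffold nucleoporin, went from 93.0, 12.3 and 15.0 to 615, 524 and 442 (3.56, SE 0.53, adjusted p = 0.00434, with 1.58 in its other bright probe set), and Nup133, of the same scaffold, fell from 403, 559 and 604 to 9.93, 19.3 and 39.6 (-3.84, SE 0.35, adjusted p = 0.000966). Of 69 histone and DNA methylation enzymes 8 were higher (11.6%) and 7 lower (10.1%), and 20 lay above and 3 below. Among 52 DNA replication genes 9 were higher (17.3%) and 14 lower (26.9%). The list's median of -0.22 turned to 0.053 after quantile normalization and 0.042 with the arrays at the same 95th percentile. Rfc2, of the clamp loader, fell from 579, 891 and 901 to 41.1, 6.95 and 7.92 (-4.65, SE 0.38, adjusted p = 0.000818), and the primase Prim1 fell by 4.48 (adjusted p = 0.00132), with a change of -1.56 in its other bright probe set. Of 54 spliceosome genes 5 were higher (9.26%) and 10 lower (18.5%). Sf3b1, a core splicing factor, rose from 984, 1295 and 1125 to 6453, 3658 and 3553 (1.94, SE 0.27, adjusted p = 0.0034), and its 3 other bright probe sets changed by 0.46 to 4.16.

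The remaining lists held calls in both directions. Over all genes 5.52% were called higher and 8.94% lower. Of 61 DNA repair genes 6 were higher (9.84%) and 5 lower (8.20%), and of 59 Rab GTPases 2 (3.39%) and 9 (15.3%). Of 17 genes of the cAMP and cGMP control of prophase arrest 1 was higher (5.88%) and 2 were lower (11.8%). Of 77 chaperones 2 were higher (2.60%) and 19 lower (24.7%, against 8.94% of all genes), while 5 passed as above and 6 as below their like-signal genes. In the fifteenth and sixteenth bins, around their median GV intensity of 301, 12.7% and 15.8% of genes were called lower. Cct3, of the chaperonin that folds tubulin and actin, read 5691, 6413 and 6272 and then 159, 418 and 177 (-4.65, SE 0.44, adjusted p = 0.00107). Dnajb4, a heat-shock co-chaperone, rose from 1519.8, 978 and 1571 to 6196, 4972 and 5204 (2.02, SE 0.28, adjusted p = 0.00318). In the fertilisation and egg activation list 2 of 27 were higher and 6 lower (22.2%). Cd9, a membrane protein needed for sperm and egg to fuse, fell from 869, 571 and 3036 to 53.4, 81.3 and 59.9 (-3.87, SE 0.63, adjusted p = 0.00646).

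**Figure D4:**
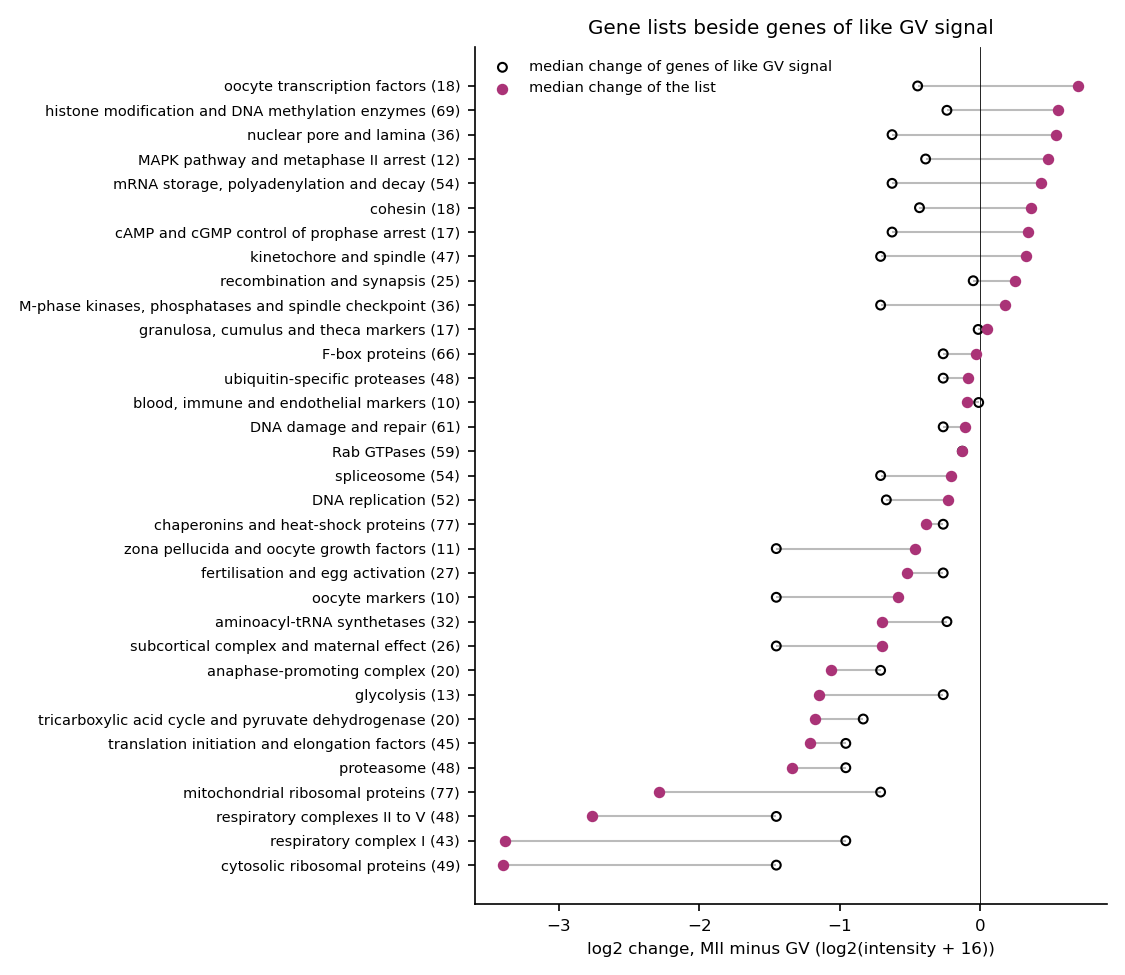
Median change of each gene list from GV to MII (filled) and the median change of genes of like GV signal (open), on the log2(intensity + 16) scale, with the number of genes in brackets. Cytosolic ribosomal proteins (-3.40 against -1.45) lie lowest and oocyte transcription factors (0.70 against -0.44) highest.

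Among further genes studied for their translation in maturation, Plat, tissue plasminogen activator, rose from 3097, 3474 and 3628 at GV, and 3809.9, 4000.0 and 3508 at MI, to 6579, 5870.4 and 7025 at MII (0.93, SE 0.18, adjusted p = 0.0134, and up to 0.172 with a pseudocount of 1 or without the dimmest 40% of genes). Its GV and MI arrays overlapped. Hprt, of purine salvage, rose from 476, 213 and 449.6 to 1416, 1515 and 1637 (2.04, SE 0.34, adjusted p = 0.00674). Tex19.1, which restrains retrotransposons in germ cells, rose from 2579, 1321 and 1184 through 4046, 3548 and 3034 to 5804, 6118 and 5331 (1.84, SE 0.31, adjusted p = 0.0071). The receptor Kit changed by -0.22 (adjusted p = 0.739).

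Genes called lower had shorter spans on the genome, in the median, than genes called higher. The median RefSeq gene span, exons and introns together, was 16.1 kb for genes called lower, 34.8 kb for genes called higher and 19.9 kb for the rest. Among genes in the 7 brightest bins of GV signal, the shortest of 5 groups of equal size (0.377 to 8.83 kb, 1274 genes) had a median change of -1.45, with 39.4% called lower and 6.28% higher. The middle group had -0.62, the next longer -0.20, and the longest (69.6 to 2058 kb, 1273 genes) 0.01, with 12.6% lower and 12.3% higher. The groups also differed in GV signal, with a median of 708 in the shortest and 489 in the longest. The median difference from genes of like GV signal was -0.84 in the shortest group, 0.04 in the middle and 0.61 in the longest. Without ribosomal, respiratory and proteasome genes the median change was -1.26 in the shortest group and 0.03 in the longest. Within the brightest bin alone the genes called lower and higher had like spans, 12.4 and 12.5 kb, and the rest 21.9 kb. This description was chosen after the values were seen and has no test.

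Readings at the 2 ends of a control message, beta-actin, also differed between GV and MII. The array carries probe sets for the 3′ and the 5′ end of beta-actin, and the ratio of the 3′ to the 5′ signal was 0.920, 0.785 and 0.828 on the GV arrays, 1.31, 1.33 and 0.454 on the MI arrays and 0.731, 0.170 and 0.544 on the MII arrays. For Gapdh it was 3.52, 7.04 and 3.42 at GV, 6.25, 3.35 and 2.80 at MI and 1.81, 3.46 and 2.37 at MII. The beta-actin ratios at MII all lay below those at GV, and the Gapdh ratios overlapped. The part of this in the changes, and in their relation to gene span, was not tested.

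**Figure D5:**
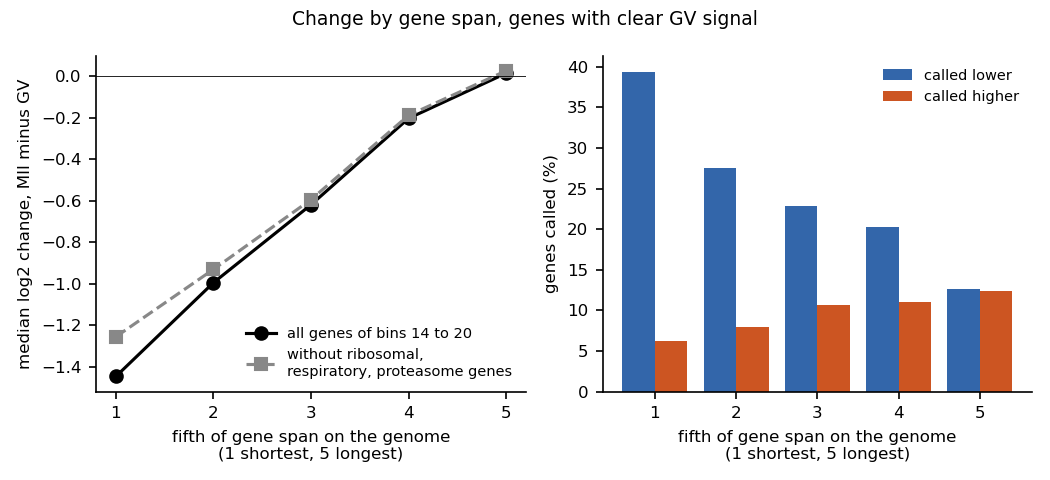
Left, median change from GV to MII on the log2(intensity + 16) scale by RefSeq gene span in 5 groups of equal size, among genes of the 7 brightest bins of GV signal, for all of them and without ribosomal, respiratory and proteasome genes. Right, the share of all of them called lower and higher, with 39.4% lower in the shortest group and 12.6% in the longest.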

How the data were processed

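The deposited value table holds 1 intensity per probe set and array for 45101 probe sets. How the authors corrected background, scaled and summarised is not given in the sources used here, and the intensities were used as deposited. Per the labels' protocols, polysome-bound mRNA was purified with an RNeasy Plus Micro kit, amplified with WT-Ovation FFPE V2 and labelled with biotin. The labels call the arrays biological replicates and give neither batch nor animals, so a p-value reflects only the spread among these samples, which may be technical.

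The 64 control probe sets were left out. By GEO's platform annotation 34945 probe sets had 1 gene symbol, 932 several and 9160 none. Each of the 18193 genes was represented by its probe set with the highest mean, and 18032 symbols were in the RefSeq gene table (GRCm38.p6). log2(intensity + 16) was fitted with limma 3.58.1 in R 4.3.3 (lmFit, eBayes) on all 9 arrays with a mean per stage. Calls used the two-sided moderated test at a Benjamini-Hochberg adjusted p under 0.05. In the comparison with genes of like GV signal, the median change of the gene's bin was subtracted and taken as free of error. Counts of calls in lists are descriptions, with no test of a list. The scripts were tested on simulated data.

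Members and lists were chosen with earlier results of these data known. Genes were named by rule: a panel of 16, the 12 furthest above and below like-signal genes among those passing both tests, 8 each of the brightest that fell, rose or held, and up to 3 per list. The groups of 12 left out unnamed genes, genes with overlapping GV and MII arrays and genes with a bright probe set of opposite sign. They also left out genes whose brighter stage lay below the median of all gene means. Genes named outside the rule are said to be chosen after their values were seen, and marker genes come from the marker lists. Alternatives were other scalings, pseudocounts of 1 and 64, leaving out the dimmest 40% of genes, the mean of all probe sets, 10 or 50 bins, bins by MI signal, the 6 arrays alone, a replicate block and leaving out each array. Gene span, runs within 5 bases of the start and the fit of every probe set were added after seeing the data. Protein length, planned beside the start runs, was not analysed here.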

Additional observations from a re-analysis of the deposited data

How the results depend on the processing

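More genes were called lower than higher under most settings, but not under all. After quantile normalization 1491 were higher and 1374 lower, and with arrays at the same 95th percentile 1456 and 1448. Genes called lower numbered 1374 to 1790 under the alternative scalings, pseudocounts, filters and models and 1156 to 1743 with an array left out. Genes called higher numbered 634 (pseudocount of 1) to 1491 (quantile normalization) under those settings and 614 to 1142 with an array left out. Genes above like-signal genes numbered 1107 to 1772 under those settings and 1081 to 1817 with an array left out. Genes below them numbered 722 to 975 and 521 to 923. Of 129 changes of named genes that were called, 105 kept the call without each single array, and of 133 differences from like-signal genes 99 did. Under at least 1 of the other alternatives 31 of the 129 changes and 34 of the 133 differences lost the call. With the replicate number as a block 1013 genes were higher and 1666 lower, 1653 above and 868 below like-signal genes. Whether the numbers pair the samples was not settled. Deviations of same-numbered arrays correlated at 0.0038 to 0.206, all positive, against -0.232 to 0.106 for different numbers. Arrays numbered 1 or 3 gave 0.095 to 0.206, and arrays numbered 2 gave 0.0038 to 0.036.

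Changes near 0 turned sign. With arrays at the same 95th percentile Dppa3 was at 0.036, Sub1 0.24, Ywhae 0.21 and Kit 0.046. Under quantile normalization Sub1 was at 0.044, Ywhae 0.033 and Kit 0.0031, after centring on medians Sub1 0.14 and Ywhae 0.11, and after cyclic loess 0.034 and 0.0010. With probe sets averaged Sub1 was at 0.39 and Iars at -0.24. With single arrays left out, changes ran from -0.0839 to 0.14 for Pttg1, -0.14 to 0.048 for Sub1, -0.0252 to 0.19 for Ube2d3, -0.15 to 0.056 for Ywhae, -0.041 to 1.41 for Cdc20 and -0.52 to 0.025 for Kit. Differences from like-signal genes turned with bins by MI signal for Ldhb (-0.18), Ooep (-0.51), Skp1 (-0.23) and Nlrp5 (-0.35), with 10 bins for Ooep (-0.17) and Nlrp5 (-0.018), and for Ooep under quantile normalization (-0.021) and with single arrays left out (-0.17 to 0.29). Without the dimmest 40% of genes they turned for Kitl (-0.15) and Fbxo43 (-0.15). List medians turned for DNA replication (0.053 quantile, 0.042 at the same percentile), DNA repair (0.058, 0.057 and, centred, 0.059, and -0.0219 for the difference with probe sets averaged), spliceosome (0.031 and 0.0091), Rab GTPases (0.042, 0.019 and, centred, 0.043) and the cAMP list (-0.093 with probe sets averaged). The causes were not tested. With 3 arrays a stage and a median SE of 0.41, small changes of dim genes could not be detected.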

Other observations

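Fitting each of the 34945 probe sets with 1 symbol on its own called 1643 higher and 2200 lower by limma's test. In 635 genes at least 2 probe sets were called: all higher in 283, all lower in 331 and in both directions in 21. Ywhaz, a 14-3-3 protein, was among the 21. A probe set of it read 5560, 4712 and 6410 at GV and 1216, 1258 and 1354 at MII (-2.10, adjusted p = 0.00114), and a further probe set read 194, 102 and 115 and then 1538, 1963 and 1722 (3.56, adjusted p = 0.00116). Hnrnpk, an RNA-binding protein, had a probe set at 1.52 (1430, 1506 and 1282 at GV, 4380, 3635 and 4142 at MII) and a further one at -2.22 (2045, 1403 and 1517, then 319, 470 and 256). Btf3l4 had probe sets at -1.71 and 1.65, Orc3, of the origin recognition complex, at -3.10 and 1.97, and Nup188 at -1.77 and 1.61. In each of these 5 genes, picked after their values were seen, neither probe set's GV and MII arrays overlapped. Which transcripts these probe sets detect was not tested. A gene-level value from the brightest probe set gives only 1 of the directions.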
